A study of Mus musculus with 8 samples.

Results

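The genes of the mitochondrial chromosome (MT) were taken from RNA-seq of bone marrow stromal cells of wild-type mice, labelled as C57BL/6J and 6 weeks of age. The study's methods give the strain as C57BL/6JJcl and an age range. Cells had been sorted by surface markers into clusters 1 to 7, and an input library was deposited with them, which made 8 groups with 1 library each. All genes whose annotated chromosome was MT were chosen, which gave 35 of the 49315 genes counted. They were 13 protein-coding and 22 tRNA genes, and the 2 mitochondrial rRNA genes were not analysed here.

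According to the study's methods, cells carrying CD31, CD45 or Ter119 were set aside in the sort. The study had defined the clusters by single-cell RNA-seq of cells that lacked these markers and carried Sca-1 and PDGFR-α. Its methods do not state whether each cluster was then sorted from within that fraction. The gates of each cluster are given as drawn in the study's sorting plots, since its methods list antibodies and no gate per cluster. Cluster 1 was gated as Sca-1+ CD39+ CD24-, cluster 2 as Ly-6C- CD39- CD24-, cluster 3 as Ly-6C+ CD24+ and negative for CD39 and CD54, and cluster 4 as Ly-6C- CD54+ CD24-. Cluster 5 was CD54+ CD121b- and negative for CD24 and Ly-6C, cluster 6 was CD24+ Sca-1- CD39-, and cluster 7 was CD54- Sca-1+ and negative for CD24 and Ly-6C. The sample titles name these clusters, whereas the protocol in the labels speaks of crushed marrow and of 1 ug of total RNA and says nothing of a sort. The methods of the study speak instead of a counted number of collected cells and of a smaller amount of total RNA. How the input cells were obtained is not given in the sources used here. Because no population had a replicate library, no difference between populations has a replicate check or a p-value. The intervals given are 95% Wilson intervals, which cover counting error only. They treat counts as independent, and duplicates made by PCR could not be removed, so they can be too narrow even for that error.

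The stromal label was checked against 7 marker genes, and all 7 had counts in all 8 libraries. Col1a1, a chain of type I collagen, ranged from 1962 to 15952 RPKM (counts per kilobase of exon per 1000000 counts) in the sorted libraries and was 690.5 RPKM in the input. The genes of the sort markers were not all above the input. Pdgfra was 4.37, 7.51 and 7.44 RPKM in clusters 2, 5 and 6, 14.1 RPKM in the input and 18.0 to 28.1 RPKM in the other sorted libraries. Ly6a, which encodes Sca-1, was 461 RPKM in the input. It was above this in clusters 1 (589.8 RPKM) and 3 (931 RPKM) and below it in the others, from 4.98 RPKM in cluster 6 to 430.8 RPKM in cluster 4. Markers of other cells were also present in all libraries. S100a9, a neutrophil gene, ranged from 4834 to 11033 RPKM in the sorted libraries and was 14745 RPKM in the input, and Ptprc, which encodes CD45, ranged from 1.69 to 9.26 RPKM and was 13.5 RPKM in the input. Ighm, a B cell gene, ranged from 53.6 to 168.8 RPKM (277 RPKM in the input). The sum of the 6 macrophage markers, of which Cd68 or C1qb was the most abundant, ranged from 16.4 to 81.1 RPKM (92.4 RPKM), and that of the 5 endothelial markers, led by Pecam1 or Tek, from 2.37 to 11.4 RPKM (12.4 RPKM).

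The mouse mitochondrial chromosome is a small circle that is copied and transcribed inside the organelle. Both of its strands are transcribed as long precursors, in which tRNAs lie between most of the other genes and mark the sites of cleavage. Its protein-coding genes all encode subunits of oxidative phosphorylation (OXPHOS), in which complexes I, III and IV pump protons and complex V makes ATP, while most subunits of these complexes and the whole of complex II are encoded in the nucleus. In the deposited files, 7 genes encode subunits of complex I (mt-Nd1 to mt-Nd6 and mt-Nd4l), mt-Cytb encodes a subunit of complex III, 3 genes encode those of complex IV (mt-Co1 to mt-Co3) and 2 those of complex V (mt-Atp6 and mt-Atp8).

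To see how much of each library came from the mitochondrial chromosome, the MT counts were divided by the total count. From cluster 1 to cluster 7, the MT share was 1.15%, 0.917%, 1.09%, 0.574%, 3.08%, 0.356% and 0.560%, and it was 0.548% in the input. Cluster 5 stood apart at the top and cluster 6 at the bottom, and the highest share was 8.66-fold the lowest. The next library below cluster 5 was cluster 1, and cluster 5 was 2.67-fold above it. Clusters 1, 2 and 3 formed an upper range and clusters 4 and 7 a lower one. The intervals of clusters 4 (0.572% to 0.577%) and 7 (0.557% to 0.562%) did not overlap, but without replicates the order of such close neighbours cannot be judged. The share of the input was 0.598-fold the median of the sorted libraries and above that of cluster 6 only. With edgeR's TMM scaling (trimmed mean of M-values) or DESeq2 size factors it was 0.373-fold the median, and the input (0.343% and 0.345% of the scaled total) then lay below cluster 6 (0.458% and 0.453%). These shares rest on between 110553 counts in the input and 395424 counts in cluster 5, of totals from 12833648 in cluster 5 to 33238133 in cluster 7. In bulk samples, fewer mitochondria per cell, less RNA per mitochondrion and other cells in the sort cannot be told apart.

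**Figure D1:**
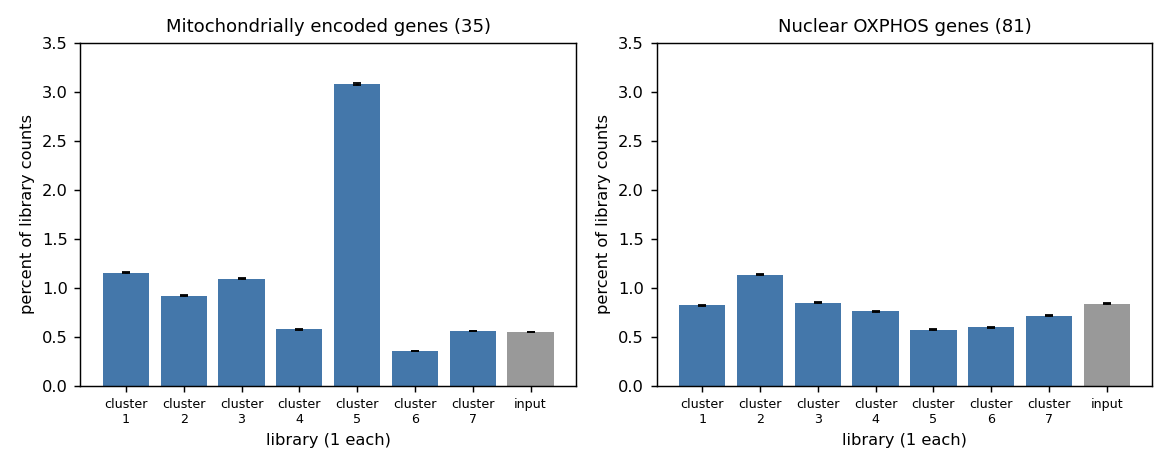
Percent of all counts of each library on the 35 MT genes (left) and on the 81 nuclear genes of OXPHOS (right), with 95% Wilson intervals, which cover counting error only. Blue bars are the sorted libraries and the grey bar is the input; the MT bar of cluster 5 reaches 3.08% and that of cluster 6 0.356%, whereas the nuclear bars lie between 0.570% and 1.13%.

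Other loci with a wide range between the libraries were highest in cluster 5 as well. The 3 loci mmu-mir-689-2, Rn18s-rs5 and Lars2 had held ribosomal-like reads in earlier results of these data, and the origin of their reads was not tested. Together they held 34.8% of the counts of cluster 5, 10.4% in cluster 2, between 0.274% and 1.91% in the other sorted libraries and 0.188% in the input. The 4 haemoglobin genes took up 5.21% of all counts in cluster 5, between 0.120% and 1.10% in the other sorted libraries and 0.0521% in the input. All 6 erythroid markers had counts in every library. Their summed level was 68505 RPKM in cluster 5, 1591 RPKM in cluster 6 and 689 RPKM in the input. Hba-a1 (haemoglobin alpha) was their most abundant gene in each of these libraries. The highest over the lowest MT share was 13.1-fold with the 3 loci removed from the total and 9.13-fold with the haemoglobin genes removed. Cluster 5 was the highest and cluster 6 the lowest sorted library in each of these, and the part of erythroid RNA in the MT counts themselves was not tested.

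Each protein-coding gene was then examined on its own by RPKM. On the unscaled library total, all 13 were highest in cluster 5 and lowest in cluster 6 among the sorted libraries. The TMM factor was 0.776 for cluster 6 and 1.03 for cluster 7, so the lowest library of a gene can change with scaling. mt-Cytb, the only mitochondrially encoded subunit of complex III, was 2787, 2005, 2904, 1277, 7671, 949.9 and 1385 RPKM from cluster 1 to cluster 7 and 1327 RPKM in the input. mt-Co1, the catalytic subunit of cytochrome c oxidase, was 2163, 1626, 1848, 1155, 5597, 641.6 and 1088 RPKM in the same order and 1093 RPKM in the input. mt-Nd1, a membrane subunit of complex I, was 2276, 1939, 1910, 966.3, 5354, 629.1 and 1043 RPKM, and 1024 RPKM in the input. The 3 genes placed cluster 5 first, clusters 1 to 3 next, then clusters 4 and 7, and cluster 6 last.

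With the thresholds RPKM above 2 and fold change above 2, taken on RPKM + 1 between the highest and the lowest sorted library, 31 of the 35 MT genes were measured and all 31 passed. Among all genes, 70.6% passed, so passing alone did not set the MT genes apart. The size of the range was larger, with a median of 8.53-fold and limits of 6.67-fold (mt-Atp8) and 10.5-fold (mt-Nd4) over the 13 protein-coding genes, against a median of 2.39-fold over the 12360 genes measured. Without cluster 5, the median over the 13 genes was 3.64-fold.

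When each sorted library was set against the median of the other 6, cluster 5 was more than 2-fold higher for 28 of 29 MT genes measured, against 4.41% of all genes. The 28 included mt-Tl2, on 4 counts, which passed the RPKM minimum in cluster 5 but not in the median of the others. The 13 protein-coding genes had log2 ratios of 1.64 to 2.28 in cluster 5, with a median of 2.02. In cluster 6, 26 of 28 MT genes were more than 2-fold lower, against 11.2% of all genes, and the 13 protein-coding genes had log2 ratios of -1.84 to -1.22 with a median of -1.52. With TMM or DESeq2 scaling, 20 of the 28 were more than 2-fold lower in cluster 6, against 6.93% and 6.84% of all genes, including 10 of the 13 protein-coding genes (median -1.10 with each). Unscaled, the range of cluster 5 lay above 0 and that of cluster 6 below 0 for every protein-coding gene. In cluster 7, 17 of 28 MT genes were more than 2-fold lower (2.71% of all genes), including 7 of the 13 protein-coding genes, and in cluster 4 10 of 28 were (1.4% of all genes), including 3 of the 13. Without the cluster 5 library, these counts were 10 in cluster 7 and 5 in cluster 4, against 2.98% and 1.47% of all genes.

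The other sorted libraries lay closer to the median. In cluster 1, 4 of 30 MT genes were more than 2-fold higher (5.81% of all genes), and without the cluster 5 library 15 were (5.53% of all genes). The 4 included mt-Th, on 5 counts, which passed the RPKM minimum in cluster 1 but not in the median of the others. In cluster 3, 3 of 28 were (4.22% of all genes), and without the cluster 5 library 9 were (3.80% of all genes). In cluster 2, 9 of 31 MT genes were more than 2-fold higher (9.48% of all genes), none of them protein-coding, and without the cluster 5 library 13 were (9.48% of all genes), of which 2 were protein-coding. The 9 were thus all short tRNA genes. Among them, mt-Tr (4 counts), mt-Th (8 counts) and mt-Tl2 (8 counts) passed the RPKM minimum in cluster 2 but not in the median of the others.

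The input was set against the median of the 7 sorted libraries. All 13 protein-coding genes had log2 ratios below 0, from -1.56 to -0.40, and 3 of them were more than 2-fold lower. Over all MT genes, 4 of 31 were more than 2-fold lower and 8 more than 2-fold higher, against 2.9% and 45.5% of all genes. The 8 included mt-Tr (3 counts) and mt-Tl2 (10 counts), which passed the RPKM minimum in the input but not in the median. In this comparison 18001 genes were measured, against 10336 to 10790 in those of the sorted libraries. With TMM or DESeq2 scaling this balance turned round, with 17 of 29 MT genes more than 2-fold lower, against 10.6% and 10.1% of all genes, and 2 higher, against 27.4% and 27.6%. The 17 included 12 of the 13 protein-coding genes.

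To compare the mitochondrial genes with their nuclear partners, 81 nuclear genes of complexes I to V were taken as a list. Together they held 0.821%, 1.13%, 0.847%, 0.757%, 0.570%, 0.594% and 0.714% of the counts from cluster 1 to cluster 7, and 0.834% in the input. As a share of the library total, the list was thus lowest in cluster 5, the highest library for the MT genes, and it ranged 1.99-fold. With mmu-mir-689-2, Rn18s-rs5 and Lars2 removed from the total, the list held 0.874% in cluster 5 and 0.603% in cluster 6, which was then the lowest library. MT counts per count on the nuclear list were 1.40, 0.809, 1.29, 0.759, 5.41, 0.598 and 0.784 in the same order, and 0.657 in the input. The order of the top and the bottom library was as for the MT share.

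**Figure D2:**
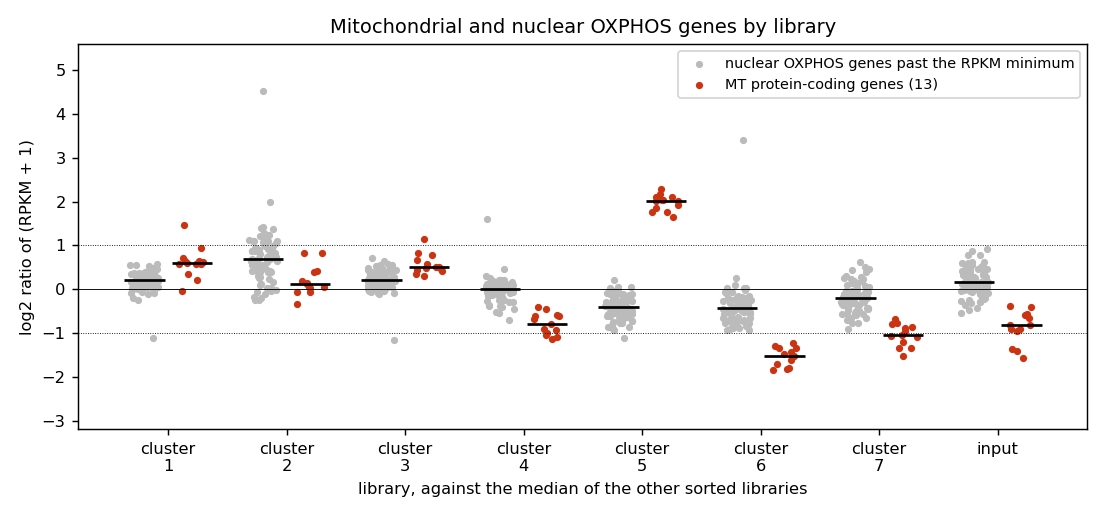
Log2 ratio of RPKM + 1 in each library against the median of the other sorted libraries, for the 13 MT protein-coding genes (red) and the nuclear OXPHOS genes past the RPKM minimum (grey), with black bars at the medians and dotted lines at 2-fold. All red points of cluster 5 lie above 1.6 with their median at 2.02, while the grey median there is -0.41; in cluster 2 the grey median of 0.70 lies above the red one of 0.11.

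In cluster 5, no nuclear OXPHOS gene of 79 measured was more than 2-fold higher, against 4.41% of all genes. Of the list, 1 was more than 2-fold lower, against 15.3% of all genes. With TMM or DESeq2 scaling 0 were higher, against 7.66% and 8.42% of all genes. With these scalings 0 were lower, against 4.62% and 3.49% of all genes. The gene lower without scaling was Cox4i2, and the largest log2 ratio was 0.22 for Ndufa3, a subunit of complex I. The median log2 ratio of the list was -0.41, beside -0.53 for all genes measured in this library, and 75 of the 79 lay below 0. With TMM scaling the medians were 0.0032 for the list and -0.16 for all genes, and the MT median was 2.42, so the MT genes lay above the nuclear list under each scaling, whereas the sign of the list's median depended on the scaling.

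In cluster 6, the nuclear list and the MT genes lay on the same side. Its median log2 ratio was -0.42, beside -0.24 for all genes, and 73 of 79 genes of the list lay below 0. None of them was more than 2-fold lower, against 11.2% of all genes. With TMM and DESeq2 scaling the list's median was -0.099 and -0.12, and that of all genes was 0.087 and 0.093. The smallest log2 ratio was -0.94 for Cox7a2l. Only 1 gene was more than 2-fold higher, against 5.16% of all genes, and this was Cox4i2 with a log2 ratio of 3.41. Cox4i2 encodes an alternative isoform of subunit 4 of complex IV, which is known for its regulation by oxygen. Its level was 122 RPKM in cluster 2, 56.3 in cluster 6 and 15.2 in cluster 4, and lay between 3.93 and 5.48 in the other 5 libraries.

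Cluster 2 had the highest share of nuclear OXPHOS counts. Of 80 nuclear genes measured, 18 were more than 2-fold higher in cluster 2, against 9.48% of all genes (12 with TMM and 14 with DESeq2, against 8.06% and 8.43%), and the median log2 ratio was 0.70, beside 0.04 for all genes and 0.11 for the 13 MT protein-coding genes. Of the 18 genes, 8 were among the 17 of complex IV, including Cox7c (log2 ratio 1.37), Cox6a1 (1.07) and Cox8b (1.99), which encodes a muscle and heart isoform. Ndufa1, a small subunit of complex I with the highest mean level of the list, was 665.5 RPKM in cluster 2 and between 232 and 375 RPKM in the other sorted libraries. The sum of the 5 skeletal muscle markers was also highest in cluster 2, at 129 RPKM, where Acta1, skeletal muscle actin, was 69.6 RPKM, while the sums of the other sorted libraries ranged from 3.23 to 66.3 RPKM. Myh4, a fast myosin heavy chain, was an exception among the 5, at 0.249 RPKM in cluster 2, below clusters 6 (0.703), 3 (0.503) and 5 (0.402 RPKM), and it was 1.84 RPKM in the input. Whether these bear on the nuclear OXPHOS values was not tested.

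The nuclear genes that copy, transcribe and translate the mitochondrial chromosome were next examined. In cluster 5, 4.41% of all genes were more than 2-fold higher and 15.3% more than 2-fold lower, with a median log2 ratio of -0.53. With scaling this balance turned round, to 7.66% higher and 4.62% lower with TMM (median -0.16) and 8.42% and 3.49% with DESeq2 (median -0.086). Of the 75 genes of the mitochondrial ribosome, 69 were measured in cluster 5, and 0 were more than 2-fold higher and 3 more than 2-fold lower, with a median log2 ratio of -0.45. The values ranged from -1.21 for Mrpl40 to 0.17 for Mrps9. Of the 35 genes of mitochondrial DNA replication, transcription and RNA processing, 24 were measured, and 0 were more than 2-fold higher and 4 more than 2-fold lower, with a median of -0.53, so both lists had medians near that of all genes. With TMM and DESeq2 scaling 0 ribosomal genes were lower, and 2 and 1 expression genes were. In the expression list Fastk, a kinase-like protein required for the mt-Nd6 mRNA, had the smallest ratio (-1.15), and Tbrg4, a protein of the same FAST kinase family, the largest (0.18). Polrmt, the mitochondrial RNA polymerase, was 2.82 RPKM in cluster 1 and 0.50 RPKM in cluster 5.

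In cluster 6, none of 70 ribosomal and none of 25 expression genes passed in either direction, with medians of -0.35 and -0.17, whereas 5.16% of all genes were higher and 11.2% lower, with a median of -0.24. The limits were 0.52 for Mrpl17 and -0.87 for Mrpl52, and 0.30 for Pnpt1, an RNA-degrading enzyme, and -0.92 for Hsd17b10, a subunit of the enzyme that trims tRNA 5' ends. In the input, 3 of 75 ribosomal and 6 of 31 expression genes were more than 2-fold higher, beside 45.5% of all genes, with medians of 0.32 and 0.62 beside 0.86 for all genes. With TMM or DESeq2 scaling none of either list was higher, beside 27.4% and 27.6% of all genes, and the medians were -0.30 for the ribosomal list with each and -0.0098 and 0.0055 for the expression list. Mrpl53 (1.26) and Supv3l1 (1.20), an RNA helicase of the mitochondrion, had the largest log2 ratios there, and Mrpl52 (-0.53) and Tbrg4 (-0.81) the smallest. For the OXPHOS list the input limits were 0.92 for Cox6a2, a muscle isoform, and -0.54 for Cox7a1. No gene of 80 passed, beside 45.5% of all genes higher and 2.9% lower. With scaling, 6 of 79 were lower with TMM and 3 with DESeq2, beside 10.6% and 10.1% of all genes. In cluster 2, 10 of 72 ribosomal genes were more than 2-fold higher (median 0.51), against 9.48% of all genes (median 0.04), and 1 of 25 expression genes, Slirp, was (median -0.11). The ribosomal count was 8 with TMM and 7 with DESeq2, against 8.06% and 8.43% of all genes. The ribosomal genes with the highest mean RPKM were Mrpl42, Mrps28 and Mrps21, at 78.8, 59.7 and 57.0 RPKM, and those of the expression list were Hsd17b10, Fastk and Slirp, at 29.4, 10.6 and 9.51 RPKM. After Ndufa1, the OXPHOS genes with the highest mean were Cox6a1 (350.9 RPKM) and Cox8a (301.6 RPKM).

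The composition of the mitochondrial total was next compared between the libraries. mt-Co1, mt-Cytb and mt-Nd1 held 72.6% to 76.4% of it in the 8 libraries. mt-Co1 held 29.0%, 27.4%, 26.1%, 31.1%, 28.1%, 27.9% and 30.01% from cluster 1 to cluster 7, and 30.8% in the input. mt-Cytb held between 25.0% (cluster 2) and 30.6% (cluster 6), and mt-Nd1 between 16.1% (cluster 4) and 20.2% (cluster 2). In cluster 5 the values were 28.5% and 16.6%, inside the range of the other libraries. For 7 of the 13 protein-coding genes the highest and the lowest share differed by at most 1.5-fold between the sorted libraries, whereas their levels in RPKM + 1 differed by at least 7.57-fold.

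**Figure D3:**
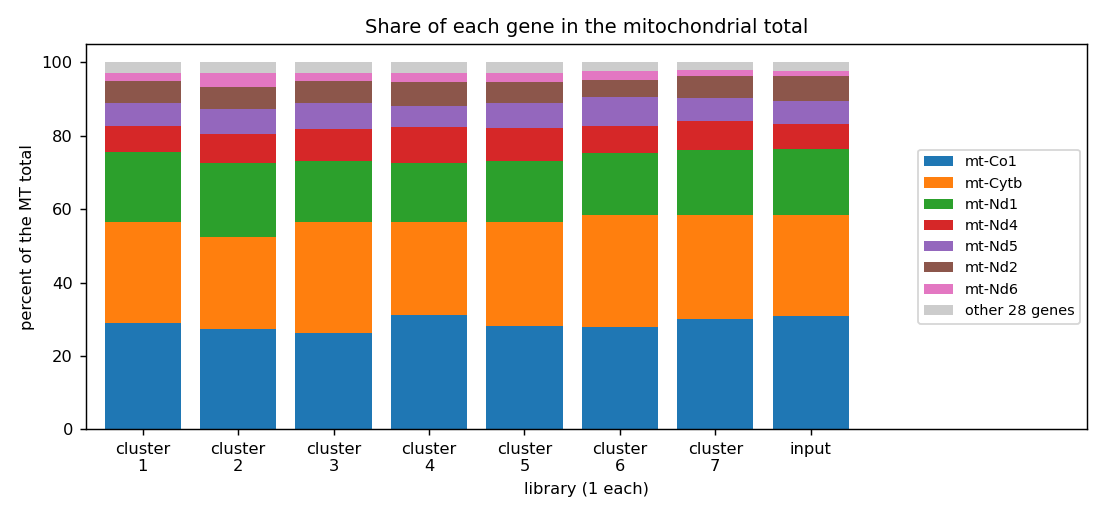
Percent of the MT total on each of the 7 protein-coding genes with the highest mean share and on the other 28 MT genes together, in stacked bars by library. The 3 lowest segments (mt-Co1, mt-Cytb and mt-Nd1) sum to between 72.6% and 76.4% in every library, cluster 5 included.

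The widest range of a protein-coding gene was that of mt-Nd6, a complex I subunit and the only protein encoded on the opposite (-) strand. From cluster 1 to cluster 7, mt-Nd6 held 1.999%, 3.61%, 2.34%, 2.45%, 2.47%, 2.37% and 1.71% of the MT total, and it held 1.42% in the input. Cluster 2 was 1.46-fold above the next sorted library, and its interval of 3.54% to 3.69% did not overlap that of any other library. The highest over the lowest share of the sorted libraries was 2.12-fold. The 7 complex I genes summed to 44.9% in cluster 2 and to between 39.3% and 40.8% in the other 7 libraries. Whether the counting used strand is not given in the sources used here, and without strand, reads from mt-Nd6 and from precursors of the other strand cannot be told apart.

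Levels within the mitochondrial total were compared per length, as counts per kilobase of full gene length per 1000000 MT counts. Parts of mt-Co1 and mt-Nd4 have a nuclear copy, and their levels per length outside it are given below. Over full length, mt-Cytb had the highest level in all 8 libraries, between 218682 and 267118 in the sorted ones. Next were mt-Co1 (169036 to 201024) and mt-Nd1 (168226 to 211521), of which mt-Nd1 was the higher in clusters 1, 2 and 3. Over full length, mt-Nd2, mt-Nd4, mt-Nd5 and mt-Nd6 ranged from 31332 to 70739. mt-Co2, a copper-bearing subunit of complex IV, was between 3944 and 7358, and mt-Co3, another core subunit of that complex, between 8109 and 13221. mt-Atp6 was between 7418 and 10982, mt-Atp8 between 3586 and 6760 and mt-Nd3 between 3776 and 6999. mt-Nd4l was lowest at 416 to 720. The 6 genes from mt-Co2 to mt-Nd4l lie next to each other on the chromosome and were thus far below their neighbours on both sides.

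**Figure D4:**
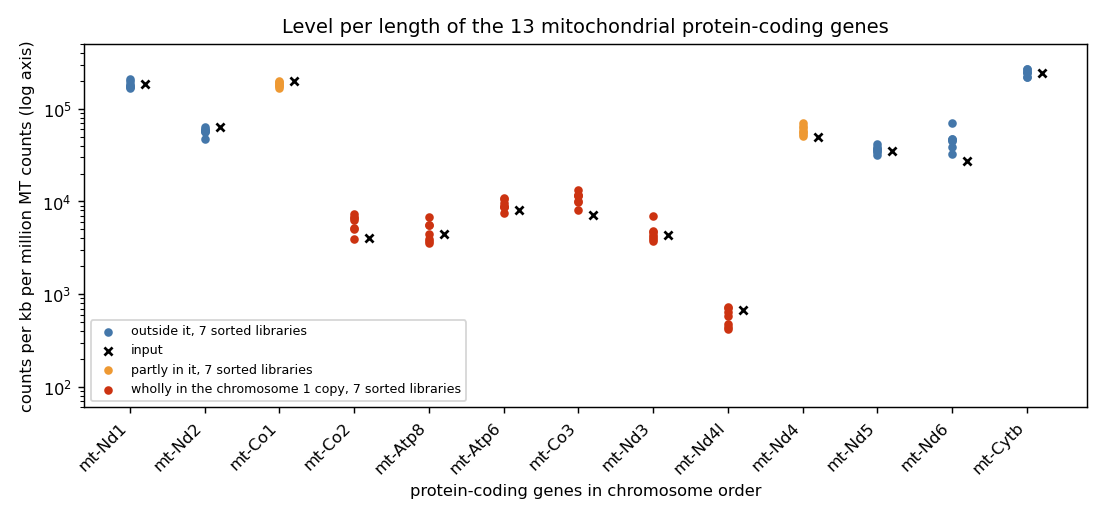
Counts per kilobase per 1000000 MT counts (log axis) of the 13 protein-coding genes in the order of the chromosome, with 1 point for each sorted library and a cross for the input, coloured by their place in the nuclear copy on chromosome 1. The 6 red genes wholly inside the copy reach at most 13221, and the blue genes outside it at least 27328, in all 8 libraries.

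This stretch is also present in the nuclear genome. In the NCBIM37 assembly, MT bases 6390 to 11042 aligned to chr1:24618374-24623027 (- strand) over 4654 bases with 99.936% identity, with 2 differing bases and 1 gap. The copy holds the whole of mt-Co2, mt-Atp8, mt-Atp6, mt-Co3, mt-Nd3 and mt-Nd4l, 31.3% of mt-Co1 and 63.6% of mt-Nd4. mt-Nd1, mt-Nd2, mt-Nd5, mt-Nd6 and mt-Cytb lie in no alignment of 99% identity or more. A further copy, chr2:22442808-22446054 (- strand, 97.362% identity), covers MT bases 4441 to 7699, with the end of mt-Nd2 and the whole of mt-Co1 and mt-Co2. Of the 100-base windows of mt-Nd2, 3.19% were identical to a nuclear stretch. The longest copy of mt-Cytb was in chr4:79648234-79651104, with 93.034% identity. Reads from the chromosome 1 copy and from the mitochondrion can be told apart only where a base differs. Stretches of 60 bases are shown to make this visible, the first from mt-Co2, where the sequences are identical, then around T9461C in mt-Nd3 (positions counted from the first base of the MT sequence, MT base first), where the stretch runs from the end of mt-Tg (MT:9391-9458) into mt-Nd3 (MT:9459-9806), and last from mt-Cytb and its chromosome 4 copy, with 4 differing bases. Capitals mark the bases that differ.
mt-Co2, MT:7324-7383: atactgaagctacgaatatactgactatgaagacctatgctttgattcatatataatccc
copy of mt-Co2, chr1:24622034-24622093: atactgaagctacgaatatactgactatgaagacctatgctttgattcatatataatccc
end of mt-Tg and start of mt-Nd3, MT:9431-9490: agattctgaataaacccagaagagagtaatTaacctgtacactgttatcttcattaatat
copy of the end of mt-Tg and start of mt-Nd3, chr1:24619927-24619986: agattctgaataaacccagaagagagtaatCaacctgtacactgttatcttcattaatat
mt-Cytb, MT:14686-14745: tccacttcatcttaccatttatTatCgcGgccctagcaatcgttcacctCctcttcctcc
copy of mt-Cytb, chr4:79650434-79650493: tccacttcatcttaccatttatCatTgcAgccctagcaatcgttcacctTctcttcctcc

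The 6 genes wholly in the copy and the 5 genes outside it did not overlap in level per kilobase in any of the 8 libraries. The lowest gene outside was 2.37-fold to 4.27-fold above the highest gene inside, and the medians differed by 8.63-fold in cluster 1 to 14.2-fold in cluster 7 among the sorted libraries and by 14.4-fold in the input. Over full length, mt-Co1 and mt-Nd4, which lie partly inside, were in the range of the genes outside. Their counts were also divided by only the length outside nuclear alignments of at least 99% identity, as if all lay there. mt-Nd4 then ranged from 145841 (input) to 206960 (cluster 4), still within that range. mt-Co1 was then above mt-Cytb, the highest gene outside, except in clusters 3 (245914 against 265683) and 6 (262492 against 267118). In cluster 4 it was 292450 against 222289. How the counting treated reads that align to more than 1 place is not given in the sources used here. Its part in the low values of the 6 genes was not tested.

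Counts were also found on 7 annotated genes of the chromosome 1 region (GRCm38 positions 24611535 to 24616197, - strand), whose lengths and spacing differ from those of the copied parts of mt-Co1, mt-Co2, mt-Atp6, mt-Co3, mt-Nd3, mt-Nd4l and mt-Nd4 by at most 9 bases. Together they had 11215, 9703, 11576, 7987, 14300, 3694 and 5523 counts from cluster 1 to cluster 7, and 2919 counts in the input. These were 2.64% (input) to 4.27% (cluster 4) of the MT total, and their share of the library was also highest in cluster 5 and lowest in cluster 6, with a range of 9.55-fold. The gene paired with mt-Co2 had 1391 counts in cluster 1, where mt-Co2 had 1304, and 1965 counts in cluster 5, where mt-Co2 had 1397. Over the 8 libraries, the counts of the nuclear partner were 1.07 to 1.42 times those of mt-Co2, 0.845 to 1.04 times those of mt-Atp6, 1.47 to 1.87 times those of mt-Co3 and 0.280 to 0.522 times those of mt-Nd3. For mt-Nd4l, which had the fewest counts of the protein-coding genes, they were 0.909 to 4.95 times. Set against the counts of the whole gene, they were at most 0.0435 times for mt-Co1 and at most 0.0390 times for mt-Nd4. The partners of mt-Co1 and mt-Nd4 match only the copied part, so these values cannot be compared with those of the wholly copied genes. Adding the partner's counts brought mt-Co3 to between 19337 and 32692 counts per kilobase per 1000000 MT counts, and mt-Co2 to between 9283 and 16241. The level of the 6 genes from mt-Co2 to mt-Nd4l is therefore given as uncertain, and the fold between libraries with the 7 genes added to the MT total was 8.69.

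mt-Atp8 and mt-Atp6 also share sequence with each other, since their reading frames overlap by 43 bases (MT:7927-7969). These bases are shown in capitals with their flanks, and reads that lie across them can belong to either gene.
mt-Atp8 and mt-Atp6, MT:7907-7989: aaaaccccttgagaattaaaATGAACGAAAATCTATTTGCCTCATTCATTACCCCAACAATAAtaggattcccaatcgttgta

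The 22 tRNA genes are 59 to 75 bases long and held little of the MT total, namely 0.549%, 0.714%, 0.449%, 0.530%, 0.784%, 0.300% and 0.358% from cluster 1 to cluster 7, and 0.751% in the input. The study's methods name polyA selection, in which mature tRNAs are not selected by a tail. Of 10447 tRNA counts in the 8 libraries, 58.7% lay on mt-Tl1, a tRNA for leucine. mt-Tl1 lies between the gene of the large rRNA and mt-Nd1, ending on the base before mt-Nd1 begins, and its sequence is shown because it carried most of the tRNA counts.
mt-Tl1, MT:2676-2750: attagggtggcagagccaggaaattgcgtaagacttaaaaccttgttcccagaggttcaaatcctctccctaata

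mt-Tl1 had 861, 890, 667, 586, 2226, 139 and 416 counts from cluster 1 to cluster 7, and 344 counts in the input. As a share of the MT total it was 0.563% in cluster 5 (0.540% to 0.587%) and 0.123% in cluster 6 (0.105% to 0.146%), a 4.56-fold range. Its interval in cluster 5 lay above those of the other 7 libraries. Thus the leucine tRNA region varied more within the mitochondrial total than any protein-coding gene did. In cluster 5, 71.8% of the tRNA counts were on mt-Tl1. The next tRNA genes by summed counts were mt-Tn (asparagine) with 1100, mt-Tc (cysteine) with 765 and mt-Tp (proline) with 644, all encoded on the - strand. Between the sorted libraries, their shares ranged 3.07-fold, 4.66-fold and 1.84-fold. The share of mt-Tf, which had at most 18 counts in a library, ranged 12.1-fold, so mt-Tl1 did not have the widest range among the tRNA genes.

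The 8 tRNA genes of the - strand held 0.281% of the MT total in cluster 2 and 0.314% in the input, against 0.109% in cluster 7 and 0.154% to 0.201% in the other sorted libraries. The 14 tRNA genes of the + strand held 0.598% in cluster 5 and 0.147% in cluster 6, mainly on mt-Tl1. The other 13 genes of that strand held 0.0349% in cluster 5, which was then below cluster 1 (0.0401%), cluster 2 (0.0499%) and the input (0.126%). Cluster 2 was thus the highest sorted library both for mt-Nd6 and for the sum of the tRNA genes of the same strand. In the input, the sum of the tRNA genes of that strand was high while mt-Nd6 was the lowest of the 8 libraries. Among the single - strand genes, mt-Ta, mt-Tn, mt-Tc and mt-Te had their highest sorted share in cluster 2. mt-Tq and mt-Ts1 had theirs in cluster 4, mt-Tp in cluster 6 and mt-Ty in cluster 7. The share of mt-Ty was lowest in cluster 2. mt-Tn held 0.0925% of the MT total in cluster 2 (215 counts) and 0.0382% in cluster 6 (43 counts).

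**Figure D5:**
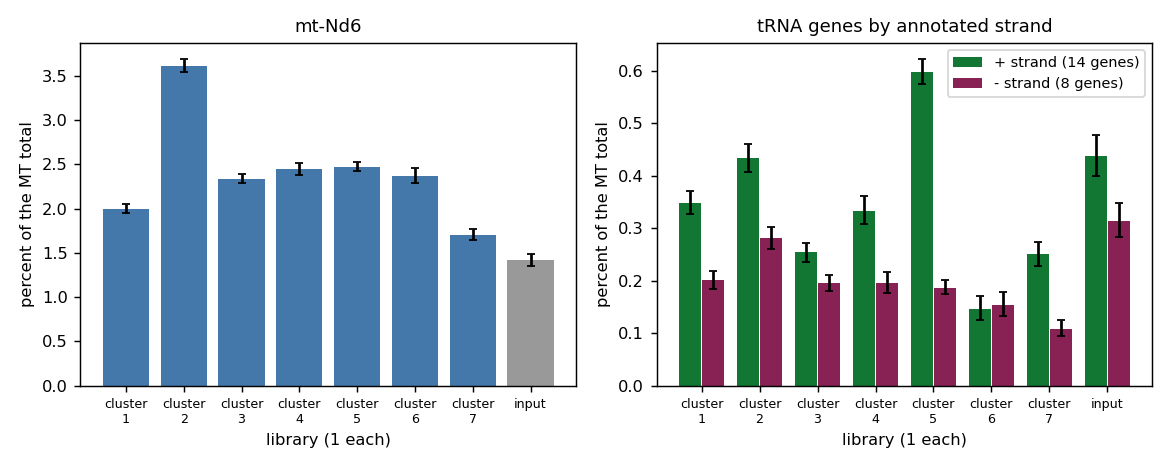
Percent of the MT total on mt-Nd6 (left) and on the tRNA genes of the + and - strands (right) by library, with 95% Wilson intervals, which cover counting error only. mt-Nd6 peaks at 3.61% in cluster 2, the + strand tRNA genes at 0.598% in cluster 5, of which mt-Tl1 holds 0.563%, and the - strand tRNA genes lie at 0.281% in cluster 2 and 0.314% in the input.

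No count was found in at least 1 library for 8 tRNA genes. mt-Tk (lysine) had 0 counts in all 8 libraries, which allows a share of up to 9.03e-06% to 2.34e-05% of the library total, the share of 3 counts. mt-Ts2 (serine) had 1 count in all and mt-Td (aspartate) 2. mt-Tg (glycine) had 6, mt-Tr (arginine) 12 and mt-Th (histidine) 21. mt-Tt (threonine) had 49 and was at 0 in cluster 7, and mt-Ti (isoleucine) had 71 and was at 0 in cluster 6. Of these 8 genes, mt-Td, mt-Tk, mt-Tg and mt-Tr lie in the chromosome 1 copy. mt-Th wholly and mt-Ts2 over 30 of its 59 bases lie in another nuclear alignment of at least 99% identity. The chromosome 1 copy holds 5 tRNA genes, and the remaining one, mt-Ts1 (serine), had 360 counts.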

How the data were processed

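RNA-seq of 7 sorted populations and of input cells was analysed, with 1 library each. The authors deposited raw counts per Ensembl gene, with exon positions and exon length, in GRCm38 coordinates. The submitters' processing notes name TopHat2 2.0.8, Partek 2.2 and mm9, and the methods of the study name polyA selection and RPKM. The counting tool, its treatment of shared reads and strandedness are not given in the sources used here. Genes of the MT chromosome were taken from the annotation in the files, and their coordinates equal those of NCBIM37 for 35 of 35 genes. The members and gene lists were chosen with earlier results of these data known.

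Each deposited count was divided by the library total (12833648 to 33238133) and by exon length to give RPKM, and ratios use log2(RPKM + 1). A gene was measured with RPKM above 2 in a compared library or median, and called above 2-fold. With 1 library per group no test was possible, and edgeR 4.0.16 and DESeq2 1.42.0 gave scaling factors only. All 13 protein-coding genes are named, together with the 4 tRNA genes with the highest summed counts, those with the lowest and those with no count in a library, and for each nuclear list the largest and smallest ratio in cluster 5, cluster 6 and the input and the 3 highest means. Cox4i2 in other clusters, Cox7c, Cox8b, Polrmt, mt-Ts1 and the other genes named for cluster 2 were chosen after their values were seen. The tRNA genes of the - strand are also all named. The 2 rRNA genes were not analysed here. Symbols came from a name table (32464 of 49315 genes), RefSeq synonyms or GRCm38 positions.

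Nuclear copies were found by blastn 2.17.0 of the MT sequence against NCBIM37, keeping alignments of at least 100 bases, and no coordinates were converted between builds. The calculations were tested on simulated counts. Python 3.11.15, numpy 2.4.6, pandas 2.3.3, matplotlib 3.10.9 and R 4.3.3 were used.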

Additional observations from a re-analysis of the deposited data

How the results depend on the processing

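No paired analysis was possible because each group had 1 library. Cluster 5 was the highest and cluster 6 the lowest sorted library for the MT share under all 9 alternatives that kept both. The ratio between them was 13.1 without mmu-mir-689-2, Rn18s-rs5 and Lars2 in the total, 9.13 without haemoglobin, 9.09 with TMM, 9.56 with DESeq2 size factors, 9.04 per nuclear OXPHOS count and 8.35 over the 5 protein-coding genes in no alignment of 99% identity or more. Without the cluster 5 library the highest was 3.24-fold the lowest. In the same order of settings, the input was 0.537, 0.592, 0.373, 0.373, 0.812 and 0.580 times the sorted median, and 0.589 times with the genes of the chromosome 1 copy added, so it stayed below 1 in each. Of the MT genes past 2-fold between the sorted libraries, 20 remained when RPKM above 2 was required in all 7, and all 20 genes tested passed, against 68.8% of all genes. Per 1000000 MT counts 18 of 31 passed, of which 1 was protein-coding (mt-Nd6).

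The alternative of the 5 genes was chosen after seeing the data, as were the omission of cluster 5 where 1 library was set against the median, the nuclear share without the 3 loci and the tRNA share without mt-Tl1. Without the cluster 5 library, MT genes past 2-fold against the median numbered 15 higher in cluster 1 and 9 in cluster 3, and 5 lower in cluster 4 and 10 in cluster 7. Among the protein-coding genes these were 6, 4, 1 and 3, and 2 were higher in cluster 2. In cluster 6, 2 nuclear OXPHOS genes and 1 ribosomal gene were then lower, and in the input 1 ribosomal gene was higher, against 13.1% of all genes lower in cluster 6 and 43.9% higher in the input. In the input, TMM and DESeq2 each gave 17 MT genes lower and 2 higher, with 12 protein-coding genes lower. For the nuclear lists, TMM and DESeq2 gave 0 OXPHOS and 0 ribosomal genes lower in cluster 5, and 2 and 1 expression genes. Of all genes, 4.62% and 3.49% were lower there. In the input, TMM and DESeq2 gave 0 ribosomal and 0 expression genes higher, against 27.4% and 27.6% of all genes. Lower in the input were 6 and 3 OXPHOS genes, 3 and 2 ribosomal genes and 1 expression gene with each, against 10.6% and 10.1% of all genes. Median log2 ratios changed sign in cluster 5 for OXPHOS (0.0032 with TMM, 0.072 with DESeq2) and ribosomal genes (0.0023 with DESeq2), in cluster 6 for expression genes (0.15 with each) and in the input for OXPHOS (-0.53 and -0.51), ribosomal (-0.30 with each) and expression genes (-0.0098 with TMM). Of the clusters whose nuclear lists are not described above, the OXPHOS, ribosomal and expression medians of cluster 1 turned from 0.20, 0.25 and 0.16 to -0.078, -0.023 and -0.095 with TMM and to -0.13, -0.067 and -0.12 with DESeq2. In cluster 4, the OXPHOS and expression medians turned from 0.0016 and 0.075 to -0.035 and -0.044 with TMM, -0.050 and -0.024 with DESeq2 and -0.093 and -0.061 without cluster 5. With a pseudocount of 0.1, 6 ribosomal genes were lower in cluster 5, 2 OXPHOS and 1 ribosomal gene lower in cluster 6, and 1 OXPHOS, 7 ribosomal and 11 expression genes higher and 1 expression gene lower in the input, where 51.3% of all genes were higher, against 24.0% of all genes lower in cluster 5 and 15.2% in cluster 6. The causes were not tested. The rRNA share and the alternative without the rRNA genes were not run, since those genes were not analysed here.

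Counting error is small for the MT share, but mt-Nd4l had 16 to 69 counts in a library, and the spread between animals or sorts is unknown for every value. The tRNA genes other than mt-Tl1 had at most 215 counts in a library.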
